A study of Chlamydomonas reinhardtii with 42 samples.

Results

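The transcripts described here are 200 genes of the green alga Chlamydomonas reinhardtii that carry no gene symbol and were chosen because their levels stood highest 12 h after vitamins were given to the cultures. They were chosen from 13489 genes without a symbol whose mean normalized count over all libraries was at least 10, of 17114 genes measured. For each gene the smallest of 3 differences on a log2(normalized count + 1) scale was its score: 12 h minus 0 h in strain A31, 12 h minus 0 h in strain DHC16, and 12 h minus 48 h in DHC16. The genes with the 200 highest scores were taken, so a peak at 12 h is what chose them and is not a result.

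RNA was sequenced from A31 and DHC16 cultures at 0, 12 and 48 h, with 3 libraries per group. A31 at 48 h is the exception, with libraries 19 and 22 only (library 25 was not analysed here). All groups were grown in Tris-acetate medium at the same temperature, and vitamin B12 and thiamine were added so that ClpP1, part of a chloroplast protease, is depleted. Light, dim light and darkness are all named for growth without being assigned to a library, and neither is it stated in which of the strains the depletion takes place. Without a 12 h or 48 h culture free of added vitamins, an effect of the vitamins cannot be told apart from growth or time of sampling. The strain is DHC16 in the sample records and DCH16 in the growth protocol. For the rapamycin treatment, the authors' deposited tables of A31 at 2 and 8 h against 0 h were used. The labels do not say whether its 0 h libraries were separate from those of the vitamin cultures. Whether replicates were separate cultures is not stated, and the spread behind each p-value may therefore be technical.

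The Clp protease degrades proteins inside the chloroplast and its ClpP1 subunit is encoded in the chloroplast genome. Rapamycin inhibits the TOR kinase, which links nutrient supply to growth. Chlamydomonas cells grow and then divide by multiple fission, and genes of DNA replication, mitosis and the daughter cell wall are known to be transcribed in waves around division. For nearly all of the 200 genes the sources used here give no function, so most are described by locus identifier alone.

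At 0 h the members were close to silent. The median member stood at 1.12, 0.763 and 0.703 normalized counts in the A31 libraries 1, 4 and 7, which is the value of 1 read in each, and at 0, 1.93 and 1.31 in the same-numbered DHC16 libraries. All 3 A31 libraries at 0 h held 0 reads for 28 members, and all 3 DHC16 libraries held 0 reads for 58. At most 3 reads per library, taken as the detection floor, were found for 118 members in A31 and for 143 in DHC16.

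At 12 h every member was detected above that floor in every library. The median member then stood at 173, 146 and 149 normalized counts in A31 and at 119, 90.9 and 87.8 in DHC16. As a description of what chose them, the median difference between 12 h and 0 h was 5.88 in A31 and 5.49 in DHC16 on the log2 scale, against 0.01 in both strains over all genes that could be chosen. With the members that had 0 reads placed at a bound of 3 reads per library the medians were 5.58 and 4.61. The members' share of all reads was 0.0277 to 0.0465% in A31 at 0 h and 1.78 to 2.28% at 12 h, and in DHC16 it was 0.00833 to 0.0157% and then 1.05 to 1.54%.

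**Figure D1:**
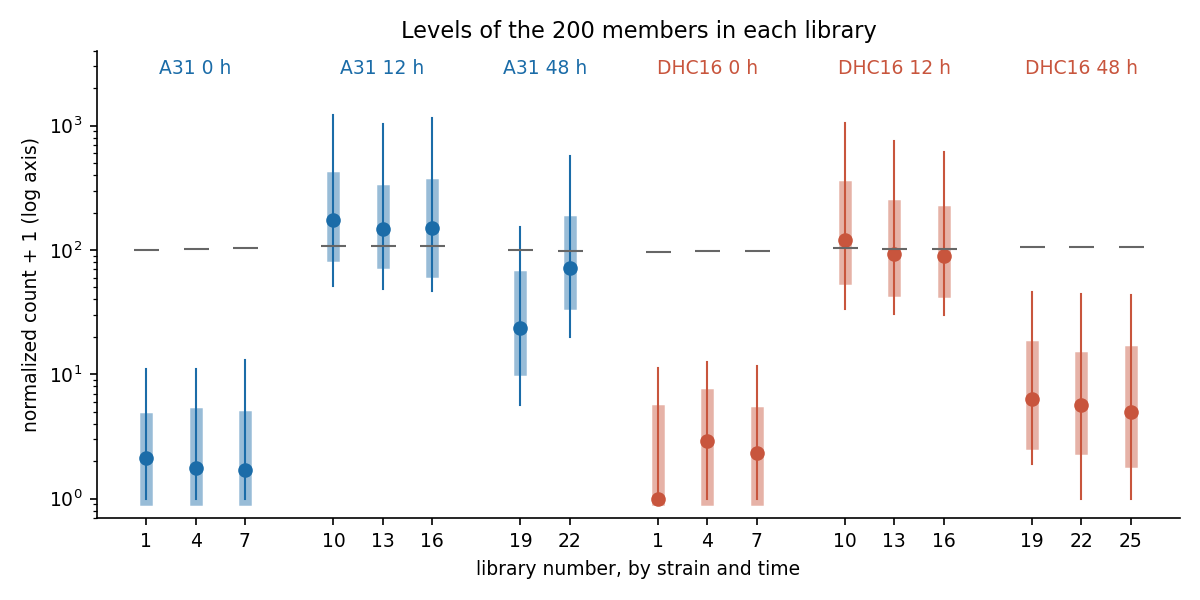
Levels of the 200 members in each of the 17 libraries, as normalized count + 1 on a log axis, with the median (point), the middle 50% of members (thick bar), the 10th to 90th percentile (thin line) and the median of all genes that could be chosen (grey dash). The grey dashes stay near 100 in all libraries, while the A31 points go from about 2 at 0 h to over 100 at 12 h, and the DHC16 points are near 5 at 48 h.

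The fall from 12 h to 48 h in DHC16 was the difference that set the score of 170 members, the rise in DHC16 set that of 19 and the rise in A31 that of 11. That fall had a median of 4.13 and ran from 3.46 to 6.11 on the log2 scale. The last gene taken was Cre15.g643499 with a score of 3.46, and the first left out was Cre12.g500250, also 3.46 when rounded. The scores of the 5 genes just inside went from 3.48 to 3.46 and those of the 5 just outside from 3.46 to 3.43, so there was no gap at the edge of the list.

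The highest score belonged to Cre16.g654700, which had 0 reads in every 0 h library of both strains. In A31 it stood at 249, 255 and 159 normalized counts at 12 h and at 39.2 and 70.1 at 48 h. In DHC16 it stood at 197, 146 and 92.9 at 12 h and at 1.78, 0 and 2.00 at 48 h. The strains overlapped at 12 h and were far apart at 48 h, with both A31 libraries above all DHC16 libraries. Against a floor of 3 reads per library, the 12 h mean was at least 85.5-fold higher than 0 h in A31 and at least 27.6-fold higher in DHC16.

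Cre01.g011650, second by score, was at 0, 0 and 2.11 normalized counts in A31 at 0 h, at 133, 167 and 155 at 12 h, and at 0.784 and 20 at 48 h. Here A31 library 19 was back within the 0 h values while library 22 was not. Cre11.g483288, seventh by score, was at 0 in all 0 h libraries, at 41.9, 135 and 89.7 in A31 at 12 h and at 32.4, 32.4 and 35.1 in DHC16 at 12 h. All 3 DHC16 libraries of this gene at 48 h were again at 0, and all 3 at 12 h were below all A31 libraries at 12 h. The other members of the 10 with the highest scores were Cre03.g169100, Cre14.g625100, Cre18.g745900, Cre03.g178000, Cre27.g775800, Cre14.g618250 and Cre02.g136700. Their A31 means at 12 h ran from 56.1 normalized counts for Cre18.g745900 to 183 for Cre03.g169100.

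**Figure D2:**
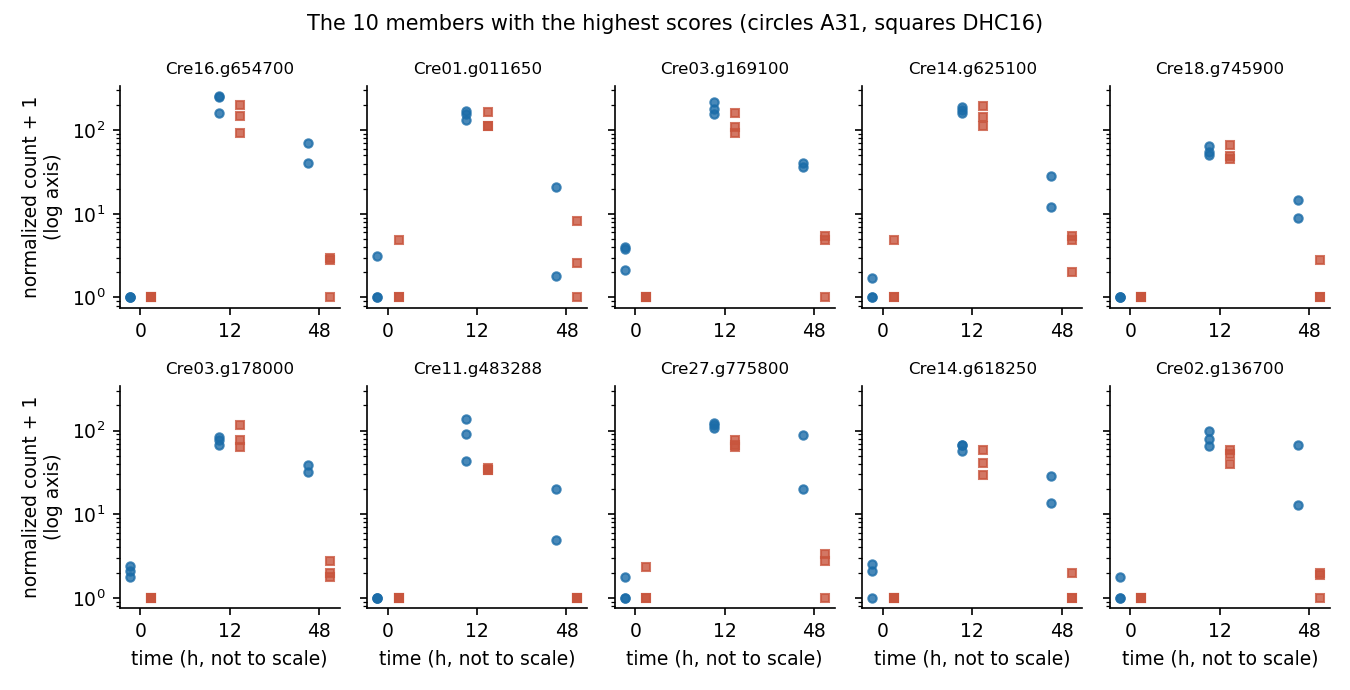
Normalized count + 1 (log axis) of the 10 members with the highest scores at 0, 12 and 48 h, each point 1 library (circles A31, squares DHC16). In both strains the 12 h mean is the highest, which the rule requires in DHC16. At 48 h the DHC16 squares lie between 1 and 10, the highest being that of Cre01.g011650 in library 19 with 8 reads. The A31 circles at 48 h lie mostly between them and the 12 h points.

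The most abundant members at 12 h reached a very different scale from the median. Cre17.g702900 stood at 23761, 18040 and 28541 normalized counts in A31 and at 27664, 19963 and 23705 in DHC16 at 12 h, the strains overlapping. It was also the exception at 0 h, with 1671, 1773 and 2998 in A31 and 225, 444 and 649 in DHC16, where all A31 libraries were above all DHC16 libraries. It entered the list at rank 197 through its smaller rise in A31.

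Cre06.g258800 stood at 82.8, 89.3 and 98.4 normalized counts in A31 at 0 h and at 21159, 17792 and 18880 at 12 h. In DHC16 it went from 69.4, 69.5 and 100.5 to 16456, 12379 and 11228, all below the A31 libraries at 12 h. The next in abundance were Cre17.g710300, with a 12 h mean of 11293 ± 2138 in A31 (SD, n = 3) and 8233 ± 3089 in DHC16, Cre17.g708750, with 8416 ± 2293 and 3591 ± 405, and Cre09.g398900, with 3641 ± 932 and 3361 ± 976. The authors' tables, which list only genes past the rapamycin thresholds, hold no row for Cre06.g258800 and Cre09.g398900 and no description of the other 3.

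Only 4 members carry a definition line there that says more than a hypothetical or predicted protein. Cre12.g488500 is described as an ARC6-like protein, ARC6 being a plastid division protein of Arabidopsis. Its A31 levels were 3.36, 2.29 and 0.703 normalized counts at 0 h and 175, 156 and 179 at 12 h. Cre10.g432500 is defined there as a chromosome condensation complex protein, and its description adds subunit D of condensin, condensin being the complex that compacts chromosomes for mitosis, and it stood at 4.48, 1.53 and 1.41 at 0 h and at 191, 138 and 142 at 12 h in A31. In both, the A31 12 h libraries lay wholly above the 0 h libraries, which follows a rise that the rule requires and is not a result.

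Cre06.g254100 is defined as a hydroxyproline-rich glycoprotein, a class of protein that builds the Chlamydomonas cell wall. Its description calls this putative and the gene model tentative. The gene had an A31 mean of 9.95 ± 6.06 normalized counts at 0 h and of 310.0 ± 79.4 at 12 h (SD, n = 3 each). Cre14.g611250, defined as a DM10 domain-containing protein and described as similar to Rib72, a protein of the flagellar axoneme, had 0.373 ± 0.646 at 0 h and 167 ± 34.4 at 12 h.

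A31 at 48 h did not enter the score, and most members were above their 0 h level there. Its libraries did count towards the minimum mean over all libraries, a filter that favours genes high in them. By limma-trend, 190 of 200 were higher than at 0 h and 0 were lower (adjusted p below 0.05), against a background of 14.4% of all 14422 tested genes called higher and 12.6% called lower. The median difference was 4.02 on the log2 scale, from 0.96 to 9.32, beside 0.03 over all tested genes, and it was 3.81 with the 28 members at 0 reads placed at their bound. The 0 h libraries on the other side of this comparison took part in choosing the members, so its direction is partly fixed. A fit of the A31 libraries at 0 and 48 h alone called 102 members.

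The largest rises from 0 h to 48 h in A31 were those of Cre09.g398900, Cre17.g717900 and Cre04.g226600. Cre17.g717900 went from 0, 3.05 and 3.51 normalized counts at 0 h to 1805 and 1557 at 48 h, a log2 difference of 9.31 ± 0.49 (SE, limma adjusted p = 8.4e-10). Both 48 h libraries were far above all 0 h libraries and close to each other. Cre04.g226600, with 0 reads in each 0 h library, stood at 337 and 819 at 48 h, at least 224-fold above a floor of 3 reads per library. At the other end Cre09.g390150 stood at 12.3, 16.0 and 14.8 at 0 h and at 14.9 and 54.6 at 48 h, with library 19 inside the 0 h range (log2 0.96 ± 0.53, limma adjusted p = 0.19). Cre01.g069700 (log2 1.55 ± 0.58, limma adjusted p = 0.057) and Cre01.g055600 (1.60 ± 0.58, limma adjusted p = 0.0501) had the next smallest differences and missed the threshold too.

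Relative to 12 h, 143 of 200 members were lower in A31 at 48 h and 0 were higher by limma-trend, where 14.7% of tested genes were called lower and 12.2% higher. The median difference was -1.88 on the log2 scale, beside -0.09 over all tested genes, and all 200 differences were negative. Both 12 h and the choice of members share the A31 12 h libraries. The count rests on which libraries are kept: it was 32, of which 1 was higher, without A31 library 19, 84 without library 10 and 94 without library 16, and a fit of the A31 libraries at 12 and 48 h alone called 0.

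The 2 A31 libraries at 48 h were far apart in these genes. The median member stood at 22.3 normalized counts in library 19 and at 70.6 in library 22, and the members took 0.312% and 0.831% of the reads. Placed on the log2 path from the A31 0 h mean to the A31 12 h mean, the median member was 54.9% of the way in library 19 and 84.2% in library 22. In library 19, 10 members were within their 0 h range and 0 reached the lowest 12 h library, whereas in library 22 all 200 were above every 0 h library and 15 reached the lowest 12 h library. What set the 2 libraries apart was not tested.

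Cre01.g011650 showed the largest fall from 12 h to 48 h in A31 (log2 -4.63 ± 0.96, SE, limma adjusted p = 0.0031), followed by Cre01.g011700, at 95.5, 94.2 and 114 normalized counts at 12 h but 0 and 50.1 at 48 h (-3.83 ± 0.99, limma adjusted p = 0.0102), and Cre17.g737750, at 62.9, 101 and 81.0 and then 3.92 and 6.37 (-3.75 ± 0.63, limma adjusted p = 0.00087). In Cre17.g737750 the 48 h libraries were alike, while in the other 2 genes library 22 was far above library 19. The smallest differences were those of Cre17.g702900 (-0.47 ± 0.36, limma adjusted p = 0.34), Cre03.g210250 (-0.74 ± 0.47, limma adjusted p = 0.25) and Cre02.g084450. The last had 1458, 1900 and 2406 at 12 h but 193 in library 19 and 6424 in library 22 at 48 h, which lie on opposite sides of the 12 h range.

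DHC16 at 48 h was low by the rule, which compares both its 48 h and its 0 h libraries with 12 h. In the 170 members whose score was set by the fall to 48 h, the log2 mean at 48 h cannot lie below that at 0 h. The direction of the difference between 48 h and 0 h is therefore largely fixed. By limma-trend 96 members were still higher than at 0 h, 4 were lower and 100 were not called, where 29.7% of tested genes were called higher and 25.3% lower. The median difference was 1.3 on the log2 scale, from -1.81 to 5.08, beside 0.06 over all tested genes. With members at 0 reads placed at their bound, and 27 at or under 3 reads on both sides left out, the median was 0.68. The size depended on the scaling: the members' median was 1.81 with per-million scaling, where the median of all tested genes moved to 1.07, and 0.26 with quantile scaling, which called 55 higher and 6 lower.

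The path from 0 h to 12 h put the median member at 27.8, 25.2 and 22.3% in the DHC16 libraries 19, 22 and 25 at 48 h, and 0 members reached the lowest 12 h library in any of them. Between 125 and 134 members per library were above every DHC16 0 h library. The members' medians in these 3 libraries were close to each other, unlike those of the A31 pair. Over all genes with enough reads, spread against counting noise (chi-square per degree of freedom) was uneven. It was 33.3 for libraries 19 and 22, 25.3 for 22 and 25 and 6.44 for 19 and 25, beside 158 for the A31 pair.

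**Figure D3:**
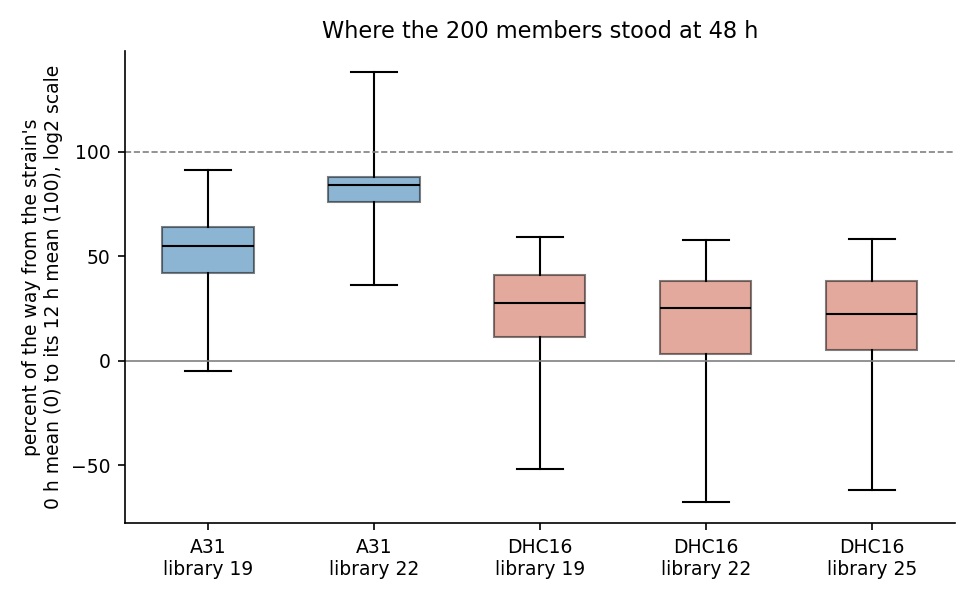
Position of the 200 members in each 48 h library on the log2 path from the strain's 0 h mean (0%) to its 12 h mean (100%), with the median (line), the middle 50% of members (box) and the full range (whiskers). The A31 libraries have medians of 54.9 and 84.2% and the DHC16 libraries medians of 22.3 to 27.8%, the latter being low by the rule.

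Among the members still high in DHC16 at 48 h, Cre14.g620650 stood at 0, 0 and 9.14 normalized counts at 0 h and at 61.5, 88.2 and 68.9 at 48 h (log2 5.08 ± 1.39, SE, limma adjusted p = 0.0054). Its A31 libraries at 48 h were split to an extreme, 2.35 in library 19 and 1471 in library 22. Cre09.g398900 stood at 6.13, 7.72 and 24.8 and then at 292, 305 and 223 (4.54 ± 0.61, limma adjusted p = 1.3e-05), and Cre04.g226600 at 2.04, 3.86 and 1.31 and then at 90.1, 70.3 and 83.8 (4.66 ± 0.30, limma adjusted p = 5.5e-09). All of these were above every 0 h library in every 48 h library.

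The 4 members called lower were Cre06.g311500, Cre08.g385550, Cre09.g390150 and, named after its value was seen, Cre06.g249050. They rest on few reads. Cre06.g311500 had 0, 4 and 3 reads at 0 h and 0 in each 48 h library, and Cre08.g385550 had 2 reads in each 0 h library and 3, 0 and 0 at 48 h, so no fold is given for either. Cre09.g390150 went from 4.08, 13.5 and 13.1 normalized counts to 1.78, 6.25 and 2.99, with overlapping libraries (log2 -1.23 ± 0.48, SE, limma adjusted p = 0.037). Of the 100 called members, 6 were at or under 3 reads in all libraries of both groups, 5 of them called higher. Further members called higher had 0 reads in each DHC16 0 h library and a 48 h mean under the 0 h floor of 5.28 normalized counts. Examples are Cre03.g169100 at 2.79 and Cre17.g706000 at 3.89, so these calls are not resolved above the floor. Others lay above it, such as Cre14.g611250 at 9.39.

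The strains were compared at 12 h, where both had been required to be high but not equally so. DHC16 had the lower mean for 186 of 200 members, with a median difference of -0.63 on the log2 scale (DHC16 minus A31), the middle 50% running from -0.84 to -0.43, beside -0.03 over all tested genes. All 3 DHC16 libraries were below all 3 A31 libraries in 111 members, 55.5%, where 18.8% of all tested genes had that order. The opposite order held for 4 members, 2%, where it held for 17.1% of tested genes. The 12 h libraries of both strains took part in choosing the members.

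Gene by gene, limma-trend with all groups sharing the spread called 1 member lower in DHC16 at 12 h and 0 higher, against a background of 1.75% and 1.71%. A fit of the 6 libraries of 12 h alone called 97 members lower and 1 higher, where it called 9.06% and 8.19% of all tested genes. The 1 member called by the shared fit was Cre17.g706000, at 179, 129 and 155 normalized counts in A31 and at 73.6, 49.2 and 57.7 in DHC16 (log2 -1.35 ± 0.34, SE, limma adjusted p = 0.037). Its strains did not overlap at 12 h, and it had 0 reads in all 0 h libraries of both. Leaving out any 1 of the 12 h libraries ended this call, with adjusted p of 0.066 to 0.21 by limma.

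**Figure D4:**
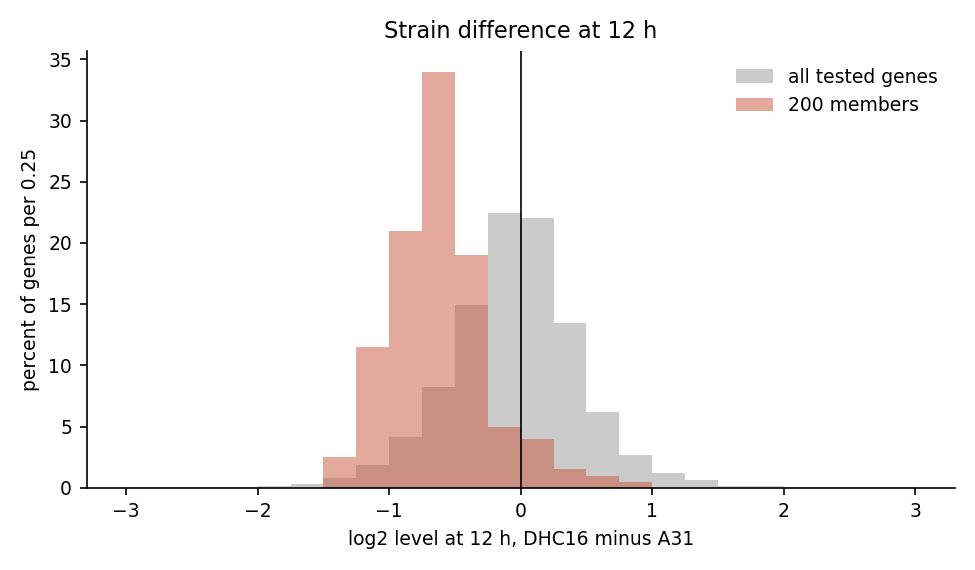
Distribution of the log2 difference at 12 h, DHC16 minus A31, in steps of 0.25, for the 200 members and for all tested genes, as percent of genes. The members' distribution sits left of 0, with a median of -0.63, and that of all genes is centred near 0 (-0.03).

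At 0 h, 9 members were higher in DHC16 and 5 lower by limma-trend, shares of 4.5 and 2.5%. Of all tested genes 4.72% were called higher and 4.66% lower. The 0 h libraries of both strains took part in choosing the members, and 111 members were at or under 3 reads in all of them. Few calls could therefore arise, and the shares do not show that the strains were alike. With per-million scaling, which moved the median of all tested genes to -0.71, the split was 5 higher and 23 lower. Of the 14 calls, 2 (Cre04.g226600 and Cre10.g421350) were at or under 3 reads in every library of both groups.

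Cre03.g173750 stood at 6.71, 10.7 and 15.5 normalized counts in A31 and at 2.04, 0 and 1.31 in DHC16 at 0 h (log2 -2.57 ± 0.46, SE, limma adjusted p = 0.0027). Cre07.g343150 stood at 16.8, 8.39 and 8.44 and at 4.08, 0 and 1.31 (-2.36 ± 0.55, limma adjusted p = 0.0127), a call that ended without A31 library 1 or DHC16 library 4 (limma adjusted p = 0.063 and 0.066), by edgeR (adjusted p = 0.055), with quantile scaling (0.092) and with only the 0 h libraries (0.054). In both genes all A31 libraries were above all DHC16 libraries, as in Cre17.g702900, whose 0 h levels are given above (-2.36 ± 0.32, limma adjusted p = 0.00031). In the opposite direction, Cre02.g134650 stood at 1.12, 1.53 and 0.703 in A31 and at 8.17, 19.3 and 2.61 in DHC16 (2.07 ± 0.44, limma adjusted p = 0.0076), not called with a pseudocount of 10 (0.12) or with only the 0 h libraries (0.075). Cre09.g398900, at 0, 3.81 and 1.41 in A31 against 6.13, 7.72 and 24.8 in DHC16 (2.37 ± 0.61, limma adjusted p = 0.0225), was likewise higher in all DHC16 libraries. Its call ended without A31 library 1 or 7 or DHC16 library 7 (limma adjusted p of 0.074 to 0.12), with a pseudocount of 10 (0.26), by edgeR (adjusted p = 0.11) and with only the 0 h libraries (0.075).

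Both strains' changes from 0 to 12 h entered the score, so their difference is given as a description that supports nothing. By limma-trend it was called for 3 members, 2 with the smaller rise in DHC16 and 1 with the larger, where 0.0971% of tested genes were called in the first direction and 0.153% in the second. Cre17.g702900 had the larger rise in DHC16 (log2 difference of changes 2.40 ± 0.45, SE), and its levels at 12 h overlapped between strains while those at 0 h did not. Cre02.g134600 had the smaller rise in DHC16 (-2.18 ± 0.43), from 8.17, 7.72 and 10.4 to 718, 327 and 434 normalized counts, against 2.24, 3.05 and 3.51 to 917, 800 and 846 in A31. Cre10.g421350 had 0 reads in A31 at 0 h and 1, 2 and 1 reads in DHC16, so its call (-2.70 ± 0.48) turns on counts at or under 3 reads.

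Rapamycin was a separate treatment, and its values did not enter the score. The rule does leave out genes with a symbol, and every symbol comes from a rapamycin table, so listed genes with a symbol are missing from the members and from the background alike. The column headed moderate fold change was read as a moderated log2 value. The authors' deposited tables list genes with an absolute value there of at least 1 and an adjusted p of at most 0.0099 at 2 h and 0.0097 at 8 h, and a gene that is not listed has no value there. At 2 h the authors' deposited table lists 118 members as lower and 2 as higher, against 5.53% and 4.27% of the 13489 genes without a symbol. At 8 h the authors' deposited table lists 131 as lower and 1 as higher, against 5.09% and 3.21%. At both times 87 members were listed as lower, and 35 were listed at neither.

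In the authors' deposited tables the members' moderated log2 changes had a median of -1.58 at 2 h, from -3.84 to -1.01, and of -1.74 at 8 h, from -3.49 to -1.02, over the members listed as lower. The 87 members listed as lower at both times had a median level of 5.96 at 0 h, 1.05 at 2 h and 1.31 at 8 h on the authors' own scale, in the authors' deposited tables. Of these 87 members, 49 had a lower log2 value at 8 h than at 2 h. The median change of all listed genes is not comparable, since the tables hold genes past a threshold only.

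The share listed as lower fell with distance from the top of the score, though not at every step. In the authors' deposited table of 8 h it was 65.5% for the members, 40.5% for the next 200 genes by score, 27.5% for the 200 after those and 2.70% for all genes beyond rank 2000. In that of 2 h it was 59%, 49.5%, 38.5% and 2.58%. From ranks 801 to 1000 to ranks 1001 to 1200 it rose in the authors' deposited tables, from 9.5 to 14.5% at 8 h and from 11.5 to 16.5% at 2 h. The share listed as higher at 8 h was 0.5% for the members and 3.55% beyond rank 2000.

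**Figure D5:**
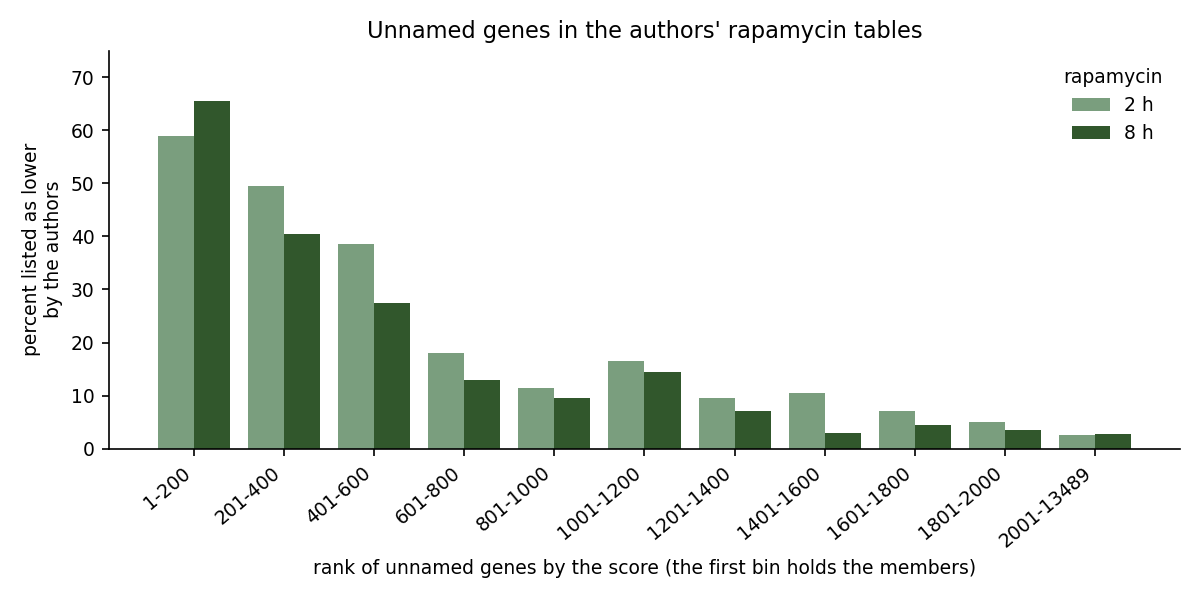
Percent of genes without a symbol that the authors' deposited rapamycin tables list as lower, by rank of the 12 h score in bins of 200 genes (the last bin holds all ranks beyond 2000), at 2 h and 8 h. The members form the first bin, at 59% and 65.5%, and the share falls to under 3% in the last.

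The largest change at 2 h in the authors' deposited table was that of Cre17.g702900, whose level went from 295 at 0 h to 16.7 at 2 h (moderated log2 -3.84) and 94.3 at 8 h (-1.70). The next in the authors' deposited table were Cre17.g708750, from 299 to 36.3 at 2 h (-3.02), Cre11.g482700, from 22.4 to 1.92 (-2.65), and Cre09.g412400, from 16.8 to 1.02 (-2.65). Of these, Cre17.g708750 and Cre11.g482700 were not listed at 8 h.

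At 8 h the largest changes in the authors' deposited table were those of Cre04.g226600, from 19.3 to 0.981 (moderated log2 -3.49), Cre02.g089650, from 5.51 to 0.111 (-3.29), Cre07.g338950, from 2.79 to 0.0780 (-3.02), and Cre06.g272250, from 37.7 to 4.72 (-2.86). Cre14.g611400 was among the 5 largest changes at both times, from 9.54 to 0.526 at 2 h (-2.56) and to 0.283 at 8 h (-2.86) in the authors' deposited tables. In the vitamin cultures its A31 levels were 0, 0.763 and 0.703 normalized counts at 0 h. At 12 h they were 1126, 928 and 1009, a rise that the rule requires. Descriptions were read from the rapamycin tables alone, so the 4 members with one had to be listed at 1 of the times. At 8 h they were listed as lower in the authors' deposited table, as were 131 of all 132 members listed then. Their values ran from -2.39 for Cre14.g611250 to -1.38 for Cre10.g432500.

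The members listed as higher were named after their values were seen. In the authors' deposited tables they were Cre17.g705300 (moderated log2 2.29) and Cre16.g658800 (1.19) at 2 h and Cre17.g737300 (2.05) at 8 h. The 35 members listed at neither time had a median A31 level of 96.0 normalized counts at 12 h, against 158 for the 165 listed, the unlisted genes having the lower median.

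By rank, the listed members stood higher at 0 h of rapamycin than at 0 h of the vitamins. In the authors' deposited tables, the 165 listed members had a median percentile of 44.5 among all 2638 listed genes by their level at 0 h of rapamycin. By A31 level in the vitamin table the same members had a median percentile of 7.30 at 0 h, 46.1 at 12 h and 25.0 at 48 h. The percentiles at 0 h and 12 h of the vitamins are set by the rule, and a gene must have had a measurable level at 0 h of rapamycin to be listed as lower, so the contrast is a description only. Over the 2638 listed genes the rank correlation of the rapamycin 0 h level was 0.749 with the A31 12 h mean and 0.439 with the A31 0 h mean, a description across genes, which are not independent replicates. The records of rapamycin at 0 h repeat library numbers of the vitamin records, the labels do not say whether libraries were shared, and the scale of the rapamycin levels is not stated.

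Genes with a symbol were put through the same score to see which resembled the members. Of 763 such genes with a mean of at least 10, 47 (6.16%) scored at or above the last member, against 1.48% of the genes without a symbol. Every symbol comes from a rapamycin table, so genes with a symbol are all listed there, and the 2 shares compare unlike sets. The 5 highest were PRL10, a predicted extracellular protein, PHC22, a cell wall pherophorin, TOP2, the DNA topoisomerase II that untangles chromosomes, CGL46, a predicted protein, and SMC2, a condensin subunit.

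By gene list, 9 of 37 replication and cell cycle genes with a symbol passed the members' lowest score: TOP2, SMC2, SMC4, CDKB1, WEE1, CYCA1, RPA70B, CDC20 and MCM2. SMC4 is the partner of SMC2 in condensin, CDKB1 and CYCA1 are a mitotic kinase and a cyclin, and MCM2 is a subunit of the replicative helicase. Of the cell wall genes 5 of 14 passed (PHC22, PHC4, PHC19, GAS28 and GAS31), and of the flagellar genes 2 of 164 (FAP281 and FAP212). The median score was 1.92 in the replication and cell cycle list, 2.58 in the cell wall list and -0.58 in the flagellar list, beside -0.45 over all genes with a symbol and -0.49 over those without. These values describe likeness of pattern, and nothing about function follows from them for the genes without a symbol.

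The reference gene table (RefSeq) matched 155 of 200 members, 77.5%, which is under the 80% needed for a check of position or length over the list, and such a check is void. As a description, 4 of the 155 matched members (2.58%) lay next to another member. Of the 10449 matched genes that could be chosen, 2.04% lay next to one. Members without a match could not be placed, so nothing about clustering over the list follows. The pairs counted among matched members were Cre13.g588250 with Cre13.g588271 and Cre07.g351400 with Cre07.g351450. Further members have close locus numbers and are not counted as pairs here. Examples are Cre01.g011650 with Cre01.g011700 and Cre02.g134600 with Cre02.g134650. Cre07.g351400 stood at 1.12, 0 and 0 normalized counts at 0 h and at 37.7, 39.7 and 57.8 at 12 h in A31, and Cre07.g351450 at 0 in each 0 h library and at 92.2, 80.2 and 75.2 at 12 h. In the authors' deposited tables both members of each counted pair were listed as lower at 2 h.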

How the data were processed

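Normalized counts per gene and library were deposited, a signal of whole reads divided by 1 factor per library (100% of values within 0.01 of a whole read). The deposited rapamycin tables hold levels, a column headed moderate fold change, read here as moderated log2 values, and adjusted p-values. The submitters' processing notes name edgeR 3.0.8, HTSeq 0.5.3p9, TopHat 1.3.1 and CASAVA 1.8.2. For the genome build, annotation, strand setting and normalization nothing is stated (not given in the sources used here), and close paralogs could share or lose reads in counting.

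Reads recovered from these steps numbered 7458423 to 13699705 per library, with 1 read worth 0.703 to 2.04 normalized counts. Floors cover counting error only. In no pair of replicates did the reads agree within counting noise.

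Genes averaging 1 CPM or more (14422, all members included) were tested with limma 3.58.1 (R 4.3.3), limma-trend on log2(normalized count + 1), 1 mean per strain and time over 17 libraries, with Benjamini-Hochberg adjustment at 0.05. This scale understates changes of low genes. On the recovered counts edgeR 4.0.16 and DESeq2 1.42.0 served as alternatives. The procedure was tested on simulated data for the strain comparison at 12 h alone. That simulation had an equal spread in all libraries and no choice of members, unlike these data, so it does not bear on the counts given here.

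The members, the gene lists and the tests were chosen with earlier results of these data known. Members named in the text are those with the 10 highest scores, the 5 highest 12 h levels, the largest calls between strains (up to 5), the 3 highest and lowest changes in each comparison with 48 h, the 5 largest rapamycin changes per time, neighbouring pairs, and members with a description. A member named otherwise is marked so. Deviations of same-numbered libraries of the 2 strains had weak correlations of 0.222, 0.211 and 0.151 at 0 h, against -0.225 to 0.05 for differently numbered ones. At 12 h they were 0.178, 0.007 and -0.03, while a differently numbered pair reached 0.219. At 48 h they were -0.084 and 0.056. Whether same-numbered libraries shared a batch was not tested. The planned motif and protein comparisons were not run, as no sequence was used here.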

Additional observations from a re-analysis of the deposited data

Results flagged for a closer look

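For 3 members limma called a difference between the strains in the change from 0 to 12 h. Both changes took part in choosing the members, so these calls, and those by edgeR and DESeq2, are a description that supports nothing. Cre10.g421350 had a difference of changes of -2.70 (DHC16 minus A31, log2), with 0 reads in A31 and 1 or 2 reads in DHC16 at 0 h, and it was not called by edgeR (adjusted p = 0.24) or DESeq2 (adjusted p = 0.064). For Cre02.g134600 the difference was -2.18, called by neither edgeR (adjusted p = 0.21) nor DESeq2 (adjusted p = 0.073). Cre17.g702900 had 2.40, called by edgeR (adjusted p = 0.042) and DESeq2 (adjusted p = 0.00041) but not with quantile scaling, where it was 1.88 (limma adjusted p = 0.11). Its call also ended in 11 of the 12 fits that left out 1 library (limma adjusted p of 0.061 to 0.14), all except that without DHC16 library 7. Among the same 12 fits, 11 ended the call of Cre02.g134600 and 9 that of Cre10.g421350.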

How the results depend on the processing

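For A31 at 48 h against 0 h (190 members) the count was 67 of the 67 members averaging 10 CPM or more, 102 with only the groups compared, and 143 to 199 when 1 library was left out. Against 12 h (143 members) the count was 51 of those 67, 0 with only the groups compared, and 32 to 181 with 1 library left out, the lowest without library 19. For DHC16 at 48 h against 0 h (100 called) it was 50 with a pseudocount of 10, 49 at 10 CPM, 61 with quantile scaling, and 85 to 95 with 1 library left out.

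Between the strains at 0 h (14 called) the count was 5 with a pseudocount of 10, 28 with per-million scaling, 5 by edgeR, 7 by DESeq2, 8 with only the groups compared, and 8 to 15 with 1 library left out, namely 9 without A31 library 1, 8 without A31 library 7 and 9 without DHC16 library 4. At 12 h (1 called, 15 at an unadjusted p under 0.05) it was 13 with a pseudocount of 10, 0 at 10 CPM, 6 with per-million scaling, 3 with quantile scaling, 6 by edgeR, 6 by DESeq2, 98 with only the groups compared, and 0 to 0 with 1 library left out. For the difference of the 12 h changes (3 called) it was 1 by edgeR, 12 with only the groups compared, and 0 to 4 with 1 library left out.

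With the replicate block the count was 17 at 0 h, 0 at 12 h and 1 for the difference of changes. Leaving both A31 48 h libraries out of the fit, an alternative chosen after seeing the data, gave 25 at 0 h, 7 at 12 h and 11 for the difference of changes. Cre02.g084450 changed sign in A31 at 48 h against 12 h, from -0.75 to 0.82 by edgeR, 0.78 by DESeq2 and -3.28 to 1.77 when 1 library was left out, the highest without library 19. The cause of these shifts was not tested. The rule itself chose 188 of the 200 members again with per-million scaling and 145 with a pseudocount of 10. Of the other values of single named members, 288 kept direction and side of the threshold, 91 fell short of it and 14 passed it.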
